A study of Rattus norvegicus and Mus musculus and Macaca mulatta with 84 samples.

Results

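The 9 hepatic enzyme genes described here code for enzymes that break down amino acids and feed carbon towards glucose, and they were followed through type 2 diabetes in rats and after treatment of mice with LNA-29, a locked nucleic acid (a chemically stabilised oligonucleotide) used to perturb the microRNA miR-29. The genes were Tat, Tdo2, Hal, Hpd, Sds, Got1, Gpt, Gpt2 and Oat, chosen by name, and all 9 were present as 1 entry each among the 32754 features of the rat table and the 48440 features of the mouse table. All 9 also passed the filter for low values in both tables. Liver polyadenylated RNA was sequenced in UCD-T2DM rats with diabetes of 2 weeks (n = 4), 3 months (n = 5) or 6 months (n = 6) and in prediabetic UCD-T2DM rats (n = 5), a strain in which obesity and insulin resistance come before type 2 diabetes. C57BL/6J mice gave 5 livers labelled LNA29 and 6 livers labelled control, all 11 in a second table. No age, feeding state, time of collection, dose or control oligonucleotide was given in the sources used here, and the prediabetic rats are of the diabetic strain and not a lean strain. The remaining 53 of the 84 samples of the series are small RNA libraries, which hold no messenger RNA.

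The enzymes sit at the entry points of several pathways. Tyrosine aminotransferase (Tat) and 4-hydroxyphenylpyruvate dioxygenase (Hpd) carry out successive early steps of tyrosine breakdown, tryptophan 2,3-dioxygenase (Tdo2) opens the kynurenine route of tryptophan, and histidine ammonia-lyase (Hal) opens histidine breakdown. Serine dehydratase (Sds) turns serine into pyruvate. The aminotransferases Gpt (cytosolic) and Gpt2 (mitochondrial) link alanine to pyruvate, Got1 (cytosolic) links aspartate to oxaloacetate, and Oat (mitochondrial) links ornithine to glutamate. In liver the pathway supplies carbon for glucose in fasting, and Tat in particular is a textbook gene of glucocorticoid and glucagon induction that insulin holds down.

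Values are the normalised counts deposited by the authors, whose library sums, in units of 1e+06, lay between 37.6 and 49.9 in rats, and between 43.3 and 52.8 in mice. They are not scaled for gene length, so levels are compared between livers and never between genes. Changes are differences of mean log2(value + 1), tested with limma in 1 fit per table over 13640 rat genes or 14596 mouse genes, with Benjamini-Hochberg adjustment and a call at an adjusted p under 0.05. The rat labels carry animal numbers, whereas nothing in the labels names separate mice, so that p-values for mice rest on sample-to-sample spread that could be technical. In bulk liver, fewer hepatocytes and less RNA per hepatocyte cannot be told apart. Of 12 hepatocyte markers 11 were in the rat table and none was at 0 in any group. Within a group each rat library correlated with its fellows at a median r of 0.960 to 0.981, the lowest being prediabetic liver 2, and each mouse library at 0.981 to 0.987.

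Prediabetic livers 4 and 5 carry animal numbers outside the run of the other rats, and they were the 2 highest of the prediabetic group for Tat, Sds, Got1, Oat, Gpt2 and Tdo2 alike. Each stage is compared with the same 5 prediabetic livers, so the stage comparisons are not independent of one another, and counts of called genes at 3 and 6 months are also given without these 2 livers, an alternative chosen after the data were seen.

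With stages pooled, Got1, Tat and Oat moved together across the rat livers, and Hpd did not follow Got1. Within stages Hpd did vary with them, at an r of 0.534 with Got1 and 0.766 with Oat. Promoter sequences are shown for Got1, Tat, Oat and Hpd. They are the 250 bases before the RefSeq start site in rat build GRCr8, written 5′ to 3′ in the direction of the gene. Capitals mark CCAAT boxes (CCAAT on either strand, so ATTGG when reversed) and GC boxes (GGGCGG on either strand, so CCGCCC when reversed).
Got1, chr1:252329872-252330121, minus strand: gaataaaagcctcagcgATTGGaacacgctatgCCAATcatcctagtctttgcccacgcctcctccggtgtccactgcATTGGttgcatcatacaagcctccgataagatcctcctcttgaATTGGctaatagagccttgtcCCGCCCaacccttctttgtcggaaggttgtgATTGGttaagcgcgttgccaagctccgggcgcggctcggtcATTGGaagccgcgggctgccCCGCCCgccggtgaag
Tat, chr19:54856354-54856603, plus strand: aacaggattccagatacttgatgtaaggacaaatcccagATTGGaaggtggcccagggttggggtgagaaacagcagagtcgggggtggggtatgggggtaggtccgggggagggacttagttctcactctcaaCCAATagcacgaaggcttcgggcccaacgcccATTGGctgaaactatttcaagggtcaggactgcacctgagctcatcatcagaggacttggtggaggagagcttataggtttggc
Oat, chr1:196797755-196798004, minus strand: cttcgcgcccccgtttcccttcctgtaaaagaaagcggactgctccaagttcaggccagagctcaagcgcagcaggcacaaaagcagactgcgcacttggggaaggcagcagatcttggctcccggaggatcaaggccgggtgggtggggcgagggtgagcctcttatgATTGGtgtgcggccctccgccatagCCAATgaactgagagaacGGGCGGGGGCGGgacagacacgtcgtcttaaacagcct
Hpd, chr12:39041996-39042245, plus strand: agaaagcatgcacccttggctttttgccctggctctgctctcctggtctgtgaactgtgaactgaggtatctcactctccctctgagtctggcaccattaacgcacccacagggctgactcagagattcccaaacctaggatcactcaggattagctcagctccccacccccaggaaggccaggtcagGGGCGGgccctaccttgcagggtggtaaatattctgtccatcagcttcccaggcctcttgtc

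The Got1 window held 6 CCAAT boxes, at 233, 217, 172, 129, 77 and 36 bases before the start. Of 33469 rat promoter windows of the same length, 34.0% held at least 1 CCAAT box and 0.0329% held 6 or more. Tat held 3 of them (2.52% of windows held as many), Oat 2, Tdo2 1, and Hpd and Gpt2 none. GC boxes, present in 30.5% of windows, numbered 2 in Got1, 2 in Oat and 1 in Hpd. The letters of a TATA box (TATAAA, 12.9% of windows) occurred in Tdo2 alone of the 6 members with a sequence, 228 bases before the start. The CCAAT, GC and TATA boxes were searched after the sequences had been read. Letters for the glucocorticoid receptor half-site (TGTTCT), the cAMP response half-site (TGACG), a C/EBP site (TTGCNNAA), the D-box (TTATGTAA), the E-box (CACGTG) and a forkhead site (TGTTTAC) occurred in none of the 6 windows, against 17.5%, 18.2%, 9.22%, 0.828%, 5.59% and 3.21% of all windows. These matches describe the printed letters and were not tested for function. Hal, Gpt and Sds are named only.

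After 3 months of diabetes the rat livers held less Got1 and Gpt2 RNA than prediabetic livers, and after 6 months less Gpt2 and more Hpd. Got1 fell by 1.65 on the log2 scale at 3 months, a 3.14-fold lower level. Gpt2 fell by 0.74 at 3 months and by 0.71 at 6 months, and Hpd rose by 0.95 at 6 months, a 1.94-fold higher level. None of the 9 genes was called after 2 weeks of diabetes. The count was thus 2 of 9 at 3 months, where 16.5% of all tested genes were called (7.76% higher and 8.72% lower), and 2 of 9 at 6 months, where 21.1% were (11.0% higher and 10.0% lower), so that the share of called members was close to that of all genes. At 2 weeks limma called 0 of 13640 genes, with 1077 at an unadjusted p under 0.05. The members called without prediabetic livers 4 and 5 were 0 at 3 months and 0 at 6 months. Over all 13640 genes the same omission left 1018 called at 3 months, against 2248 with all livers, and 1049 at 6 months, against 2875. With so few calls over all genes, 0 of 9 members is not a result particular to them. The plot of the 9 genes by stage shows the single livers behind these counts.

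**Figure D1:**
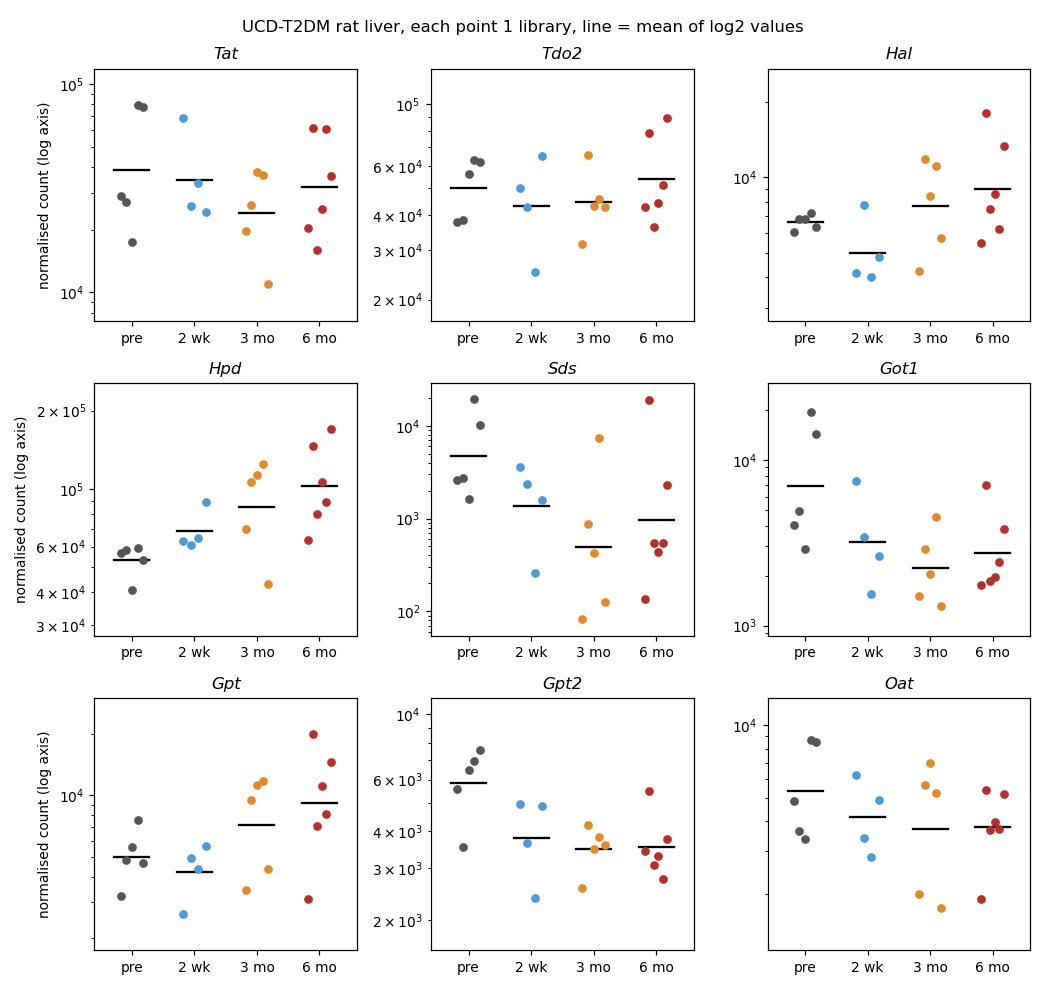
Normalised counts of the 9 genes in rat liver (log axis) by stage: pre, prediabetic (n = 5), 2 wk (n = 4), 3 mo (n = 5) and 6 mo (n = 6). Each point is 1 liver and each line the mean of the log2 values. Hpd ran from 63351 to 169900 at 6 months and from 40938 to 59389 before diabetes, while Sds spread from 134 to 19221 at 6 months.

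Of the tyrosine enzymes, Hpd (ENSRNOG00000001338) was the only member whose 6-month and prediabetic livers did not overlap. Its normalised counts at 6 months ran from 63351 (lowest) through 97503 (median) to 169900 (highest), against 56525, 58013, 40938, 59389 and 53167 in the prediabetic livers. All 6 of the 6-month livers thus lay above every prediabetic liver, and limma gave a log2 change of 0.95 (SE 0.26, 95% interval 0.40 to 1.50, adjusted p = 0.0152). Of all tested genes 34.5% had an unadjusted limma p under 0.05 at 6 months. The share of all genes without overlap was not taken at any stage. At 3 months Hpd stood at 70318, 106600, 112618, 124087 and 43206, against the same prediabetic livers (log2 0.68, SE 0.27, adjusted p = 0.0934), or 0.72 with array weights (adjusted p = 0.0457). Liver 5 of the 3-month group was the exception, lying within the prediabetic range, and without it the 3-month difference was 0.93 (adjusted p = 0.0145). No other of the 10 omissions gave a 3-month call (adjusted p up to 0.203). At 2 weeks the 4 livers stood at 63292, 60750, 64485 and 89401, also above every prediabetic liver, although the change of 0.37 was not called (adjusted p = 0.769). The 6-month call of Hpd held in 11 of 11 omissions of a liver (adjusted p up to 0.0410). Its change without prediabetic livers 4 and 5 together was 1.01 (adjusted p = 0.0636).

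Tat (ENSRNOG00000016348), which acts just before Hpd, was not called at any stage. Its counts were 29175, 27139, 17489, 79279 and 77677 in the prediabetic livers, 68975, 25995, 33537 and 24385 at 2 weeks, and 19794, 26315, 38050, 36707 and 10946 at 3 months. At 6 months they ran from 15908 through 30720 to 61814. The highest liver of a stage held between 2.83 and 4.53 times the Tat of the lowest, and all stages overlapped. The log2 changes against prediabetic livers were -0.15 (95% interval -1.20 to 0.90) at 2 weeks, -0.68 (-1.67 to 0.31) at 3 months and -0.26 (-1.21 to 0.69) at 6 months. The 6-month difference without prediabetic livers 4 and 5 turned to 0.42 (adjusted p = 0.624).

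The entry enzymes of tryptophan and histidine breakdown also passed no test. Tdo2 (ENSRNOG00000011612) ran from 37800 to 63005 before diabetes, from 25148 to 65169 at 2 weeks, from 31652 to 65625 at 3 months and from 36282 to 89239 at 6 months. Its log2 change against prediabetic livers was -0.21 (95% interval -0.82 to 0.39) at 2 weeks, -0.17 (-0.75 to 0.40) at 3 months and 0.10 (-0.45 to 0.65) at 6 months. Hal (ENSRNOG00000004502) was tightly grouped before diabetes, at 6038, 6847, 6800, 7234 and 6345. It spread from 4222 to 11889 at 3 months and from 5465 to 18127 at 6 months, with a change of 0.44 at 6 months (95% interval -0.18 to 1.05, adjusted p = 0.309). Between 6 months and 2 weeks the Hal difference was 0.85 (adjusted p = 0.0903).

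Sds (ENSRNOG00000001388), the serine-degrading enzyme, had the widest spread of the 9. Its prediabetic livers held 2630, 2724, 1644, 19241 and 10134 normalised counts and the 2-week livers 3597, 2349, 258 and 1589. At 3 months the livers held 82.1, 881, 420, 7359 and 124, and at 6 months they ran from 134 through 542 to 19221. Below every prediabetic liver were 4 of 5 livers at 3 months and 4 of 6 at 6 months, while 3-month liver 4 and 6-month livers 2 and 6 lay within the prediabetic range. The mean log2 change of -3.26 at 3 months (SE 1.24, 95% interval -5.84 to -0.68) had an adjusted p of 0.0754, and that of -2.30 at 6 months an adjusted p of 0.178. With array weights, which give outlying libraries less influence, Sds was called at both stages (-3.87, adjusted p = 0.0166, and -3.15, adjusted p = 0.0289). Leaving out 3-month liver 4 moved the 3-month change to -4.24 (adjusted p = 0.0209), and leaving out 6-month liver 2 moved the 6-month change to -3.16 (adjusted p = 0.0448). No other omission gave a call, with an adjusted p of up to 0.187 in 10 omissions at 3 months and 0.366 in 11 at 6 months. Without prediabetic livers 4 and 5 together Sds was not called at either stage. The within-stage SD of Sds was 2.16 on the log2 scale, at percentile 99.6 of the 13640 genes tested, whose median SD was 0.275.

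Got1 (ENSRNOG00000016356), the cytosolic aspartate aminotransferase, was at 1511, 2913, 2050, 4486 and 1306 in the 3-month livers, against 4065, 4895, 2913, 19298 and 14331 in the prediabetic livers. The highest prediabetic values were again those of livers 4 and 5, and the groups overlapped through 3-month liver 4. limma gave a change of -1.65 (SE 0.53, 95% interval -2.75 to -0.55, adjusted p = 0.0379), a call lost without the filter on low values (adjusted p = 0.0521) and with only the 2 groups in the fit (adjusted p = 0.0615). At 6 months Got1 ran from 1765 through 2191 to 7061, against the same prediabetic livers, with a change of -1.34 (adjusted p = 0.0653), or -1.81 with array weights (adjusted p = 0.0129). At 2 weeks it stood at 7404, 3402, 1550 and 2610 (log2 -1.13, adjusted p = 0.635). The 3-month call was lost in 6 of 10 omissions of a liver, those of 3-month livers 1, 2, 3 and 5 and of prediabetic livers 4 and 5, with changes between -1.28 and -1.75 and an adjusted p of up to 0.110. Without prediabetic livers 4 and 5 together the change was -0.81 (adjusted p = 0.310).

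Of the 2 alanine aminotransferases Gpt2 was called and Gpt was not. Gpt2 (ENSRNOG00000059579), the mitochondrial form, stood at 2567, 4200, 3480, 3822 and 3610 in the 3-month livers and from 2758 through 3366 to 5499 in the 6-month livers, against 5589, 3534, 6467, 6922 and 7592 in prediabetic livers. Prediabetic liver 2 was the low exception of its group and made the groups overlap. Gpt2 was lower at 3 months (log2 -0.74, SE 0.23, adjusted p = 0.0304) and at 6 months (log2 -0.71, SE 0.22, adjusted p = 0.0245). At 2 weeks it was at 4967, 3652, 2370 and 4873, a difference of -0.61 that was not called (adjusted p = 0.522). The 3-month call was lost without 3-month livers 1 or 3 or prediabetic livers 3, 4 or 5 (adjusted p up to 0.0878), and the 6-month call without 6-month liver 5 or prediabetic livers 3, 4 or 5 (adjusted p up to 0.0744). Without prediabetic livers 4 and 5 together the changes were -0.53 (adjusted p = 0.199) at 3 months and -0.50 (adjusted p = 0.222) at 6 months.

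Gpt (ENSRNOG00000033915), the cytosolic form, stood at 3435, 9541, 11287, 11701 and 4360 in the 3-month livers and from 3111 through 9625 to 19994 in the 6-month livers, against 3232, 4855, 5594, 7600 and 4694 in prediabetic livers. The 6-month change was 0.87 (SE 0.40, 95% interval 0.02 to 1.71, adjusted p = 0.134), and 6-month liver 1, the lowest of its group, lay below every prediabetic liver. Without it the change was 1.18 (adjusted p = 0.0273), the only call in 11 omissions of a liver (adjusted p up to 0.274). The 2-week livers held 2630, 4917, 4385 and 5628, a change of -0.24 against prediabetic livers (adjusted p = 0.926). Against these 2-week livers the 6-month livers differed by 1.11 (adjusted p = 0.107), or by 1.42 without 6-month liver 1 (adjusted p = 0.0280). That was the only call in 10 omissions (adjusted p up to 0.280).

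Oat (ENSRNOG00000016807), the mitochondrial ornithine aminotransferase, was not called at any stage. It ran from 3363 to 8668 before diabetes, from 2849 to 6243 at 2 weeks, from 1752 to 6963 at 3 months and from 1904 to 5375 at 6 months. Its change at 6 months was -0.50 (95% interval -1.28 to 0.28, adjusted p = 0.362).

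Set between diabetic stages, none of the 9 genes was called. limma called 320 of 13640 genes (2.35%, with 1.15% higher and 1.20% lower) at 3 months against 2 weeks, 1203 (8.82%, with 4.66% higher and 4.16% lower) at 6 months against 2 weeks and 2 (0.0147%) at 6 months against 3 months. The plot of changes sets the intervals of the 9 genes side by side.

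**Figure D2:**
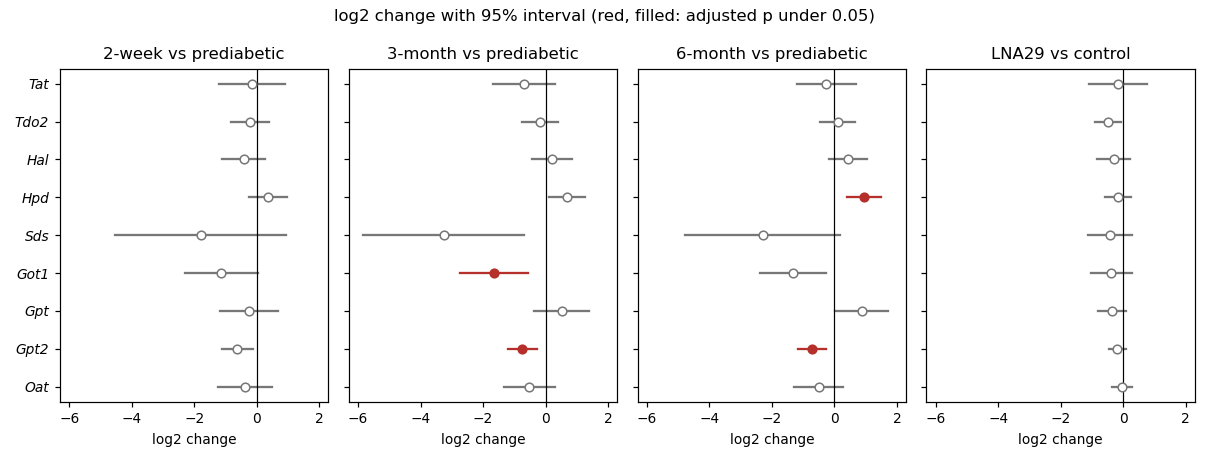
log2 change (x axis) of each gene with its 95% interval at 2 weeks, 3 months and 6 months of diabetes, each against the same prediabetic rats, and with LNA29 against control mice. Filled red points have an adjusted p under 0.05: Got1 and Gpt2 at 3 months and Hpd and Gpt2 at 6 months.

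The 9 genes varied together from liver to liver. Of their 36 pairs across the 20 rat livers, 34 had a positive Pearson's r of the log2 values, with a median of 0.497, and 18 had an adjusted p under 0.05 in a two-sided permutation test with adjustment over the 36. The permutations ran over all livers regardless of stage, and no such count was taken for pairs of other genes. The closest pair was Sds with Got1, at r = 0.911 and Spearman's rho = 0.977. Both had a permutation p of 1e-05, the smallest that 100000 permutations can give, and an adjusted p of 0.00036 over the 36 pairs. The value of r was 0.902 without the 2 livers farthest from the median and 0.882 after the stage means were taken out. Hal with Gpt followed at r = 0.875 and rho = 0.856 (permutation p = 2e-05 and adjusted p = 0.00036 for each), with r = 0.791 without the 2 farthest livers and 0.839 within stages. Hpd was correlated with Gpt (r = 0.806, rho = 0.740, 0.705 without the 2 farthest livers, 0.785 within stages), with permutation p = 4e-05 for r (adjusted 0.00048) and 0.00027 for rho (adjusted 0.00162). The only 2 negative pairs were Hpd with Got1 (r = -0.0262, rho = -0.0767, permutation p = 0.915 and 0.751) and Hpd with Gpt2 (r = -0.223, rho = -0.280, permutation p = 0.343 and 0.230), with adjusted p of at least 0.306, and within stages both were positive, at 0.534 and 0.295.

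The rat values thus held a group of Tat, Sds, Got1 and Oat, whose 6 pairs had r between 0.684 and 0.911, and a group of Hal, Hpd and Gpt, with r between 0.689 and 0.875. Within stages all 36 pairs were positive, from 0.295 to 0.882, and the groups were less apart. Pairs across them then ran from 0.304 (Tat with Hal) to 0.797 (Hal with Sds). Pairs inside them ran from 0.659 to 0.882 in the first group and from 0.703 to 0.839 in the other. Gpt2, placed in neither, had an r of 0.753 with Sds and 0.781 with Got1 with stages pooled, but 0.413 with Tat. All livers share the normalisation of 1 table. These groupings were read from the values and were not tested. The plot of paired values shows both the Sds with Got1 relation and the Hal with Gpt relation across all 4 stages.

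**Figure D3:**
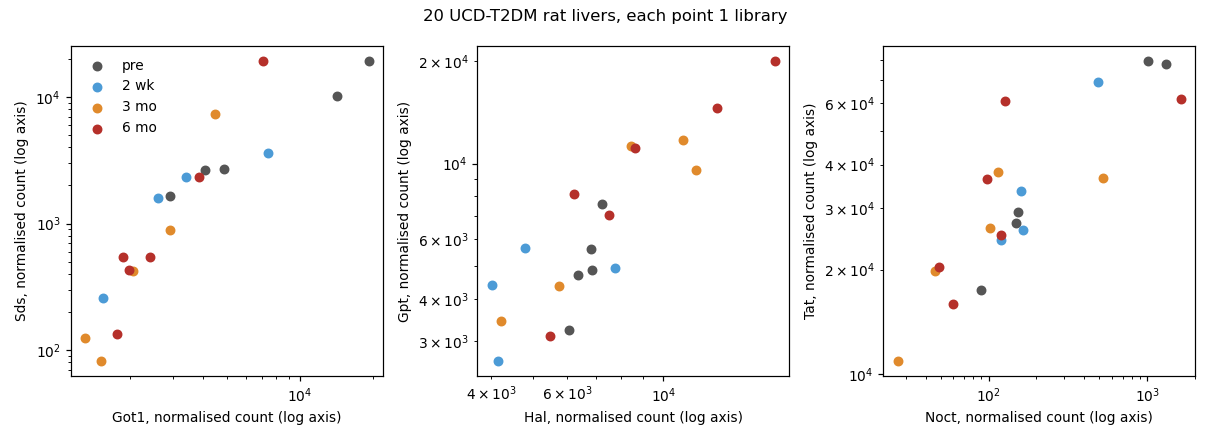
Normalised counts (log axes) in the 20 rat livers, each point 1 liver coloured by stage: Sds against Got1, Gpt against Hal, and Tat against Noct. Sds and Got1 rise along 1 line through all stages (r = 0.911), and livers high in Noct are high in Tat (r = 0.858).

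Among 11408 other rat genes with a mean of at least 50, those most like each member by r across the 20 livers, up to 3 each, are given as a description. Tat was most like Usp2 (0.859), Noct (0.858) and Alas1 (0.803), and Noct was also among the 3 most like Sds (0.880, with Cps1 at 0.909 and Cgrrf1 at 0.903) and Got1 (0.876, with Slc25a15 at 0.881 and Cgrrf1 at 0.872). Oat was most like Slc25a15 (0.838), with Cog7 at 0.804, and Tdo2 was most like Etnppl (0.874), Arg1 (0.857) and Dbt (0.819). Hpd was most like Kyat3 (0.929), AY172581.9 (0.898) and Inmt (0.894), Gpt was most like Pcca (0.934), Mccc1 (0.889) and Mt-cyb (0.875), and Hal was most like Mccc1 (0.849), Mt-co2 (0.843) and Eci2 (0.841). Gpt2 was most like Slc38a4 (0.888), with Baiap2 at 0.855.

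Values of 2 circadian clock genes, picked after the spread of the members had been seen, are given beside these results. Dbp, a clock output gene, ran from 1359 to 3598 normalised counts before diabetes, from 426 to 3806 at 2 weeks, from 119 to 7297 at 3 months and from 436 to 10054 at 6 months. Arntl, a core clock activator, ran from 357 to 735, from 263 to 1219, from 67.5 to 1494 and from 52.0 to 1409 over the same stages. The 3-month liver with the most Sds (liver 4) and the 6-month liver with the most Sds (liver 2) were those with the most Dbp and the least Arntl of their stage. Within stages in rats Sds had an r of 0.700 with Dbp and -0.817 with Arntl, and Hpd one of 0.254 and -0.423. For these 2 genes the signs were opposite in the mouse livers. Within the mouse groups Sds had an r of -0.497 with Dbp and 0.383 with Arntl. Hpd had one of -0.561 with Dbp there, and a positive one with Arntl. The signs for Noct, Usp2 and Per1 were the same in both species. Within stages in rats Sds had an r of 0.864, 0.822 and 0.687 with them, and within the mouse groups 0.392, 0.691 and 0.378. Hpd was also positive with each of them in both species, with Per1 at 0.630 in rats and 0.681 in mice. The part of the time of collection in the results on these genes was not tested.

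**Figure D4:**
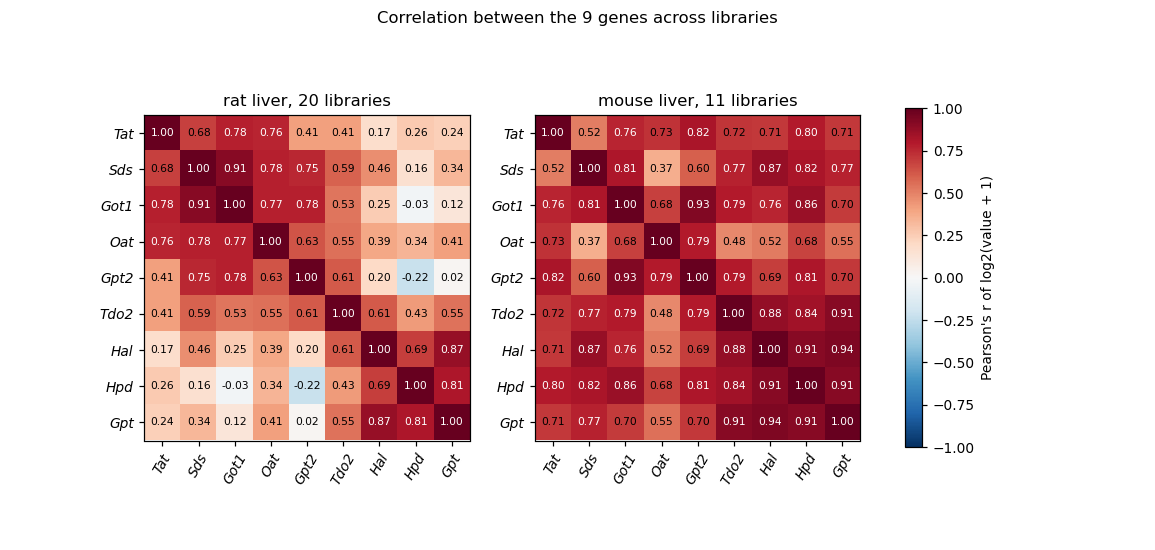
Pearson's r of log2(value + 1) for each pair of the 9 genes across 20 rat livers (left) and 11 mouse livers (right), on a colour scale from -1 to 1. In rats, with stages pooled, Tat, Sds, Got1 and Oat form a block apart from Hal, Hpd and Gpt. In mice all 36 pairs are positive, from 0.367 to 0.935.

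The steps next to these enzymes were read from lists of related genes, which leave out the 9. At 6 months 2 of 16 other genes of aromatic amino acid breakdown rose and 3 fell, with a median log2 change of -0.05 beside 0.01 for all genes. Acmsd, which diverts tryptophan carbon away from NAD synthesis, rose to 735 ± 359 normalised counts in 6-month livers (n = 6), against 152 ± 20.6 in prediabetic livers (SD, n = 5; log2 2.11, SE 0.34, adjusted p = 0.000356). Kynu, kynureninase of the same route, fell to 3052 ± 1510 in 6-month livers, against 6492 ± 1967 in prediabetic livers (log2 -1.15, adjusted p = 0.00510). Hgd, homogentisate dioxygenase and the next step after Hpd, fell to 5773 ± 816, against 8534 ± 878 (log2 -0.57, adjusted p = 0.00411). The directions of Acmsd and Hgd were also called at 3 months (2.11 and -0.51). Kyat3 rose by 0.45, a call that was lost in 9 of 11 omissions of a liver (adjusted p up to 0.105). Of 4 other histidine genes Hdc, histidine decarboxylase, was the 1 called at 6 months (log2 -1.45, adjusted p = 0.0222), a call lost without prediabetic livers 1, 4 or 5 (adjusted p up to 0.0631). The aromatic genes called at 6 months without prediabetic livers 4 and 5 numbered 4, against 5 with all livers, and the histidine genes 0, against 1. Over all genes that omission cut the 6-month calls from 2875 to 1049, so losses in this and the later lists are not particular to them.

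Around Sds, 4 of 12 genes of serine, glycine and threonine metabolism fell at 6 months and none rose, with a median of -0.34. They were Srr (-0.54), Amt (-0.50), Shmt2 (-0.45) and Agxt (-0.36), of which Amt and Shmt2 belong to glycine cleavage and one-carbon transfer. Around Oat and the aminotransferases, 2 of 12 genes of glutamate, glutamine and proline metabolism rose and 2 fell. Glul, glutamine synthetase, stood at 14775 ± 3967 in 6-month livers, against 8289 ± 2759 in prediabetic livers (log2 0.85, adjusted p = 0.00810), while Aldh4a1, which oxidises the product of Oat to glutamate, fell by 0.47 on the log2 scale. Slc25a15, the mitochondrial ornithine carrier, was the 1 of 8 urea cycle genes called (log2 -0.69, adjusted p = 0.0498), and that call was lost in 8 of 11 omissions of a liver (adjusted p up to 0.154). With prediabetic livers 4 and 5 left out, 1 serine, glycine and threonine gene, 1 glutamate, glutamine and proline gene and 0 urea cycle genes were called at 6 months, against 4, 4 and 1 with all livers.

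In sulphur amino acid metabolism 4 of 9 genes fell at 6 months and none rose. Csad, which makes hypotaurine on the way to taurine, fell to 432 ± 212 normalised counts in 6-month livers, against 5973 ± 2727 in prediabetic livers (log2 -3.81, SE 0.42, adjusted p = 1.51e-05). Bhmt, which remethylates homocysteine, stood at 56540 ± 33255, against 135175 ± 27360 (log2 -1.44, adjusted p = 0.0248), and was not called without 6-month livers 1 or 5 or prediabetic liver 5 (adjusted p up to 0.0653). Of 18 genes of branched-chain breakdown 3 rose (Bcat2 1.00, Acadsb 0.81, Pcca 0.47) and 5 fell. Of 12 amino acid transporters Slc1a2 (2.23) and Slc6a13 (0.70) rose, and the glutamate carrier Slc25a22 fell (-0.85). Leaving out prediabetic livers 4 and 5 left 2 sulphur genes, 1 branched-chain gene and 1 transporter called, against 4, 8 and 3 with all livers. Calls over all genes fell from 2875 to 1049 with the same omission.

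The gluconeogenic genes downstream of these enzymes were called in both directions. Of 10 genes measured, 1 rose and 4 fell at 6 months, with a median of -0.37. Pc, pyruvate carboxylase, which takes up the pyruvate made by Gpt and Sds, fell to 16483 ± 2351 in 6-month livers, against 32306 ± 1058 in prediabetic livers (log2 -0.98, SE 0.17, adjusted p = 0.000804). Fbp1 fell by 0.52 and Mdh2 by 0.42 on the log2 scale, and Pck2, the mitochondrial form of phosphoenolpyruvate carboxykinase, rose by 0.84. With prediabetic livers 4 and 5 left out, 2 of the 10 were called at 6 months, against 5 with all livers, and 2 at 3 months, against 6.

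Of 13 genes responsive to glucocorticoid or cAMP 4 rose at 6 months and 1 fell. Igfbp1, which insulin represses, stood at 20539 ± 18102 in 6-month livers, against 2499 ± 1149 in prediabetic livers (log2 2.76, SE 0.59, adjusted p = 0.00312). The metallothionein genes Mt2A (2.70) and Mt1 (2.05) and the insulin receptor substrate gene Irs2 (1.16) rose as well. Of 19 hormone receptor and transcription factor genes Nr1i3 (1.67) and Cebpd (1.50) rose, and Cebpa, a factor of the mature hepatocyte, fell to 6667 ± 1379 in 6-month livers, against 11957 ± 1543 in prediabetic livers (log2 -0.86, adjusted p = 0.00219). The call of Cebpd was lost in 9 of 11 omissions (adjusted p up to 0.0906). Without prediabetic livers 4 and 5, Acmsd (2.19), Kynu (-1.36), Hgd (-0.57), Csad (-4.29), Pc (-0.99), Cebpa (-0.95), Igfbp1 (2.86), Mt2A (2.16) and Mt1 (1.49) were still called in the same direction at 6 months. So were Amt (-0.47), Acadsb (0.98), Slc1a2 (1.99) and Mdh2 (-0.41). Calls were lost for Kyat3, Hdc, Srr, Shmt2, Agxt, Glul, Aldh4a1, Slc25a15, Bcat2, Pcca, Bhmt, Slc6a13, Slc25a22, Pck2, Fbp1, Irs2, Nr1i3 and Cebpd, with an adjusted p between 0.0504 for Irs2 and 0.425 for Slc25a15. The hormone-responsive genes called fell in number to 3 of 13 and the receptor and factor genes to 1 of 19.

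Many of these enzymes are known to be zoned across the liver lobule. At 6 months 0 of 13 periportal genes rose and 3 fell, namely Aldh1b1 (-2.49), Cyp2f4 (-0.78) and Apoc2 (-0.77). Of 13 pericentral genes 3 rose, among them Cyp1a2 (1.14) and Glul, and 3 fell, among them Car3 (-2.09) and Rgn (-0.89). When prediabetic livers 4 and 5 were left out, 1 periportal gene (Cyp2f4) and 4 pericentral genes were called, and Aldh1b1, Apoc2 and Car3 were not (adjusted p = 0.0872, 0.0559 and 0.0567).

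Markers of other cell types were higher in the same livers. At 6 months 8 of 9 Kupffer cell and macrophage markers, 4 of 10 stellate cell markers, 3 of 8 bile duct markers and 3 of 7 lymphocyte and neutrophil markers were called higher and none of them lower, while of 11 hepatocyte markers 2 were called higher and 1 lower. At 3 months the counts were 8, 5, 1 and 3 higher, with 0 higher and 3 lower among hepatocyte markers. The summed Kupffer cell and macrophage level ran from 20786 to 61820 at 6 months and from 19175 to 46246 at 3 months, against 13333 to 20837 before diabetes, while the summed hepatocyte level ran from 7023880 to 10388300 at 6 months and from 4979330 to 7551940 at 3 months, against 5403910 to 7440580. The Kupffer cell and macrophage markers called without prediabetic livers 4 and 5 numbered 5 at 6 months and 2 at 3 months. The stellate cell markers then numbered 3 and 4, the bile duct markers 0 and 1, the lymphocyte and neutrophil markers 1 and 1, and the hepatocyte markers 1 and 3, at 6 and 3 months in that order. No marker of these lists was at 0, whereas of 6 adipocyte markers Lep and Plin1 were at 0 in every rat group. The adipocyte markers together still summed to between 2839 and 5146 in the rat livers. Of the 2 that passed the filter, 1 was called higher and 1 lower at 6 months. The part of these cell types in the falls and rises above was not tested.

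The mature 3p forms of the miR-29 family, which LNA-29 is named for, share 1 seed, the bases 2 to 8 that pair with target messages. The rat sequences (RefSeq, GRCr8) are shown, with the seed in capitals.
miR-29a-3p: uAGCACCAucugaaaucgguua
miR-29b-3p: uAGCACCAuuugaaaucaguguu
miR-29c-3p: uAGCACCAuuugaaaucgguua

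With LNA-29 none of the 9 genes was called, where 2.43% of all 14596 tested genes were (355, with 229 or 1.57% higher and 126 or 0.863% lower). All 9 point estimates were below 0, between -0.49 and -0.03 on the log2 scale, with a median of -0.30 beside 0.00 for all genes. The 9 genes rose and fell together from mouse to mouse, so the 9 signs are not independent. The smallest p belonged to Tdo2 (ENSMUSG00000028011), which stood at 53509, 103147, 45093, 50134 and 58726 in LNA29 livers and ran from 60939 through 84533 to 101659 in control livers. Of the LNA29 livers 4 were below every control liver and liver 2 was above every one. The change was -0.49 (SE 0.19, 95% interval -0.91 to -0.07, limma adjusted p = 0.191). Without LNA29 liver 2 it was -0.69 (adjusted p = 0.0206), the only call in 11 omissions of a liver (adjusted p up to 0.370).

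The groups overlapped for all 9 genes. Gpt (ENSMUSG00000022546) stood at 5332, 10316, 4208, 5736 and 6297 in LNA29 livers, against 5067 through 8315 to 9094 in control livers (log2 -0.35, 95% interval -0.80 to 0.09, adjusted p = 0.370). Tat (ENSMUSG00000001670) stood at 42887, 150992, 59633, 55006 and 71032, against 23985 through 91874 to 133163 (log2 -0.16, 95% interval -1.09 to 0.76). Hpd (ENSMUSG00000029445) stood at 74908, 142955, 73543, 70234 and 90914, against 68057 through 105894 to 115632 (log2 -0.17, 95% interval -0.58 to 0.24). LNA29 liver 2 was the highest of its group for all 9 genes, and control liver 5 the lowest of its group for 8 of 9.

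Sds (ENSMUSG00000029597) stood at 2705, 9751, 2401, 3421 and 4828 in LNA29 livers, against 3566 through 5198 to 7649 in control livers (log2 -0.42, 95% interval -1.12 to 0.29). Got1 (ENSMUSG00000025190) stood at 12382, 31361, 16119, 10190 and 17135, against 12174 through 22701 to 34539 (log2 -0.38, 95% interval -1.04 to 0.28). Hal (ENSMUSG00000020017) ran from 10163 to 29451, against 12540 to 22981 (log2 -0.30, 95% interval -0.83 to 0.22). The 2 steadiest genes gave the narrowest intervals. Gpt2 (ENSMUSG00000031700) ran from 24401 to 34438 in LNA29 livers, against 23629 to 38253 in control livers (log2 -0.19, 95% interval -0.45 to 0.08), and Oat (ENSMUSG00000030934) from 57063 to 68956, against 41796 to 85595 (log2 -0.03, 95% interval -0.35 to 0.29). The plot of the mouse livers shows these values.

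**Figure D5:**
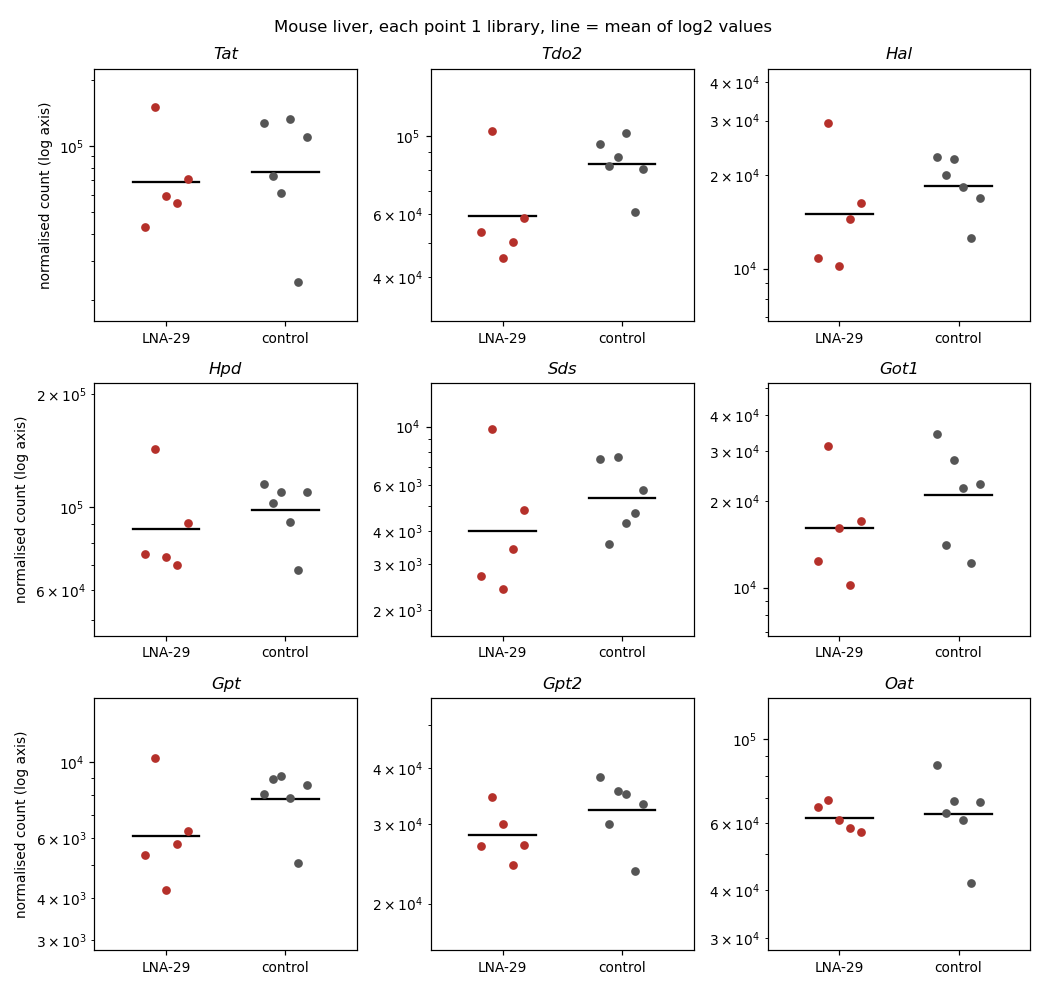
Normalised counts of the 9 genes in mouse liver (log axis) with LNA-29 (n = 5) and in controls (n = 6). Each point is 1 liver and each line the mean of the log2 values. The groups overlap for all 9 genes, and for Tdo2 4 of 5 LNA29 livers lie below the lowest control at 60939.

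Across the 11 mouse livers all 36 pairs of the 9 genes had a positive r, with a median of 0.772, and 30 had an adjusted p under 0.05 by permutation. The permutations ignored the groups, and pairs of other genes were not counted. With Alb, a hepatocyte marker, the r of the 9 genes ran from 0.593 (Sds) to 0.881 (Hpd). The closest pair was Hal with Gpt (r = 0.935), which was also among the closest in rats, with rho = 0.918 (permutation p = 4e-05 for r and 0.00013 for rho, adjusted 0.00108 and 0.00378) and r = 0.889 without the 2 farthest livers. The loosest was Sds with Oat (r = 0.367, rho = 0.573, permutation p = 0.270 and 0.0707). The within-group SD of Tat, 0.83 on the log2 scale, was at percentile 97.5 of all genes tested in mice and close to its value of 0.82 in rats, while that of Sds was 0.64 in mice. By likeness across the 11 livers, Tat was closest to Ddit4 (0.960), Per1 (0.950) and Cebpb (0.945), Got1 to Urad (0.966) and Acmsd (0.965), and Oat to Slc25a15 (0.909), the gene most like Oat in both species. Among the same lists of amino acid, transporter, gluconeogenesis, regulator, hormone-responsive and zonation genes, Auh, an enzyme of leucine breakdown, was the 1 gene called with LNA-29 (log2 0.34, SE 0.07, adjusted p = 0.0358), and that call was lost in 7 of 11 omissions of a liver (adjusted p up to 0.0976). Hdc had the smallest p of the histidine genes (log2 -0.42, adjusted p = 0.0879). Summed Kupffer cell and macrophage markers ran from 7372 to 14552 in LNA29 livers, against 8725 to 11951 in control livers, with 0 of 10 called.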

How the data were processed

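Liver libraries were made with the Illumina TruSeq polyA+ kit, per the labels' protocols. STAR, Salmon and DESeq2 and the builds rn6, mm10, mm9 and hg19 are named in the submitters' processing notes. Neither their versions nor their roles were stated there. The deposited values are the authors' normalised counts (signal per gene, not whole numbers), in 1 table for rats and 1 for mice. Whole reads were not recovered: between 47.4% and 84.0% of low values per rat library, and 30.4% and 63.8% per mouse library, lay within 0.05 of a whole multiple, so no count test was run and the true depth is unknown.

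Values were analysed as log2(value + 1) for genes with a mean of at least 10, with limma 3.58.1 in R 4.3.3 (variance trend, all groups of a table in 1 fit, no covariate) and Benjamini-Hochberg adjustment over all genes tested. On data simulated from the tables the fit was checked for recovery of known changes. Alternatives were another pseudocount (5), no filter, no variance trend, array weights, only the 2 groups compared, a replicate block and each library left out. From each list of neighbouring genes, up to 4 called genes with the largest absolute log2 change at 6 months and up to 2 called with LNA-29 could be named (or, with none called, up to 2 of the smallest p), with the 3 genes most like each member among those with a mean of at least 50. For Oat and Gpt2 in rats, 1 of these 3 is not reported here. The members and lists were chosen with earlier results of these data known. The 53 small RNA libraries were not analysed here.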

Additional observations from a re-analysis of the deposited data

Results flagged for a closer look

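Of 54 combinations of a gene and a group, 8 held a library far from its fellows by Dixon's criterion, applied to values without logs. Chance gives about 1 in 20 for independent values with a normal spread. These values are skewed and the genes vary together, so the 8 cannot be set against that rate. In rats, Hpd stood at 89401 in 2-week liver 4, with the next highest at 64485. Sds stood at 7359 in 3-month liver 4 (next 881) and at 19221 in 6-month liver 2 (next 2316). Gpt2 stood at 5499 in 6-month liver 2 (next 3779). In mice, LNA29 liver 2 held 150992 normalised counts of Tat (next 71032), 103147 of Tdo2 (next 58726) and 142955 of Hpd (next 90914). Control liver 5 was low in Gpt, at 5067, with the next lowest at 7833.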

How the results depend on the processing

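Members called at 3 months numbered 1 without a filter, 1 with only the 2 groups compared, 4 with array weights, 1 with the replicate block and 0 without prediabetic livers 4 and 5. At 6 months they numbered 4 with weights, 1 with the block and 0 without those livers, and at 6 months against 2 weeks 2 with the block. Of 13640 rat genes, those called with weights were 26 at 2 weeks, 4358 at 6 months, 851 at 3 months against 2 weeks and 2218 at 6 months against 2 weeks. With LNA-29 they were 620 of 14596. Without prediabetic livers 4 and 5 the genes called were 1018 of 13640 at 3 months and 1049 at 6 months. The counts over all genes for the other 3-month settings, and for the block at 6 months, are not given here. Those member counts therefore stand without a share to set them against. LNA-29 calls were 212 without a filter and 195 without a variance trend, and 3-month against 2-week calls were 162 with only those groups. The replicate numbers did not pair the samples (correlations of deviations from -0.18 to 0.22). With the replicate block, which leaves 6-month liver 6 without weight, 195 genes were called at 3 months against 2 weeks, 574 at 6 months against 2 weeks, 1 at 6 months against 3 months and 70 with LNA-29. The block ended the Gpt2 calls at 3 months (-0.74, limma adjusted p = 0.0555) and 6 months (-0.73, 0.0541), and Hal (0.81, 0.0470) and Gpt (1.05, 0.0431) were the members called at 6 months against 2 weeks.

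Leaving out 1 library gave 0 to 3 genes called at 2 weeks, 1456 to 2389 at 3 months, 1919 to 3567 at 6 months, 41 to 557 at 3 months against 2 weeks, 317 to 1716 at 6 months against 2 weeks, 0 to 4 at 6 months against 3 months and 120 to 540 with LNA-29. Members called were then 0 to 3 at 3 months, 1 to 4 at 6 months, 0 to 1 at 6 months against 2 weeks and 0 to 1 with LNA-29. Uncalled changes reversed sign. Tdo2 at 6 months was -0.15 with weights and -0.042 with the block, Gpt2 at 6 against 3 months -0.041 with weights, and Oat there -0.18 with weights and -0.075 with the block. Without prediabetic livers 4 and 5, Tat was 0.54 at 2 weeks and 0.42 at 6 months, Oat 0.088 at 2 weeks and Tdo2 0.037 at 3 months. The cause was not tested. With 1 library left out, Tat ran from -0.48 to 0.11 and Tdo2 from -0.41 to 0.048 at 2 weeks, and Tdo2 from -0.042 to 0.22 at 6 months. At 3 months against 2 weeks Tdo2 ran from -0.22 to 0.24, Gpt2 from -0.35 to 0.0036 and Oat from -0.38 to 0.12. At 6 months against 2 weeks Tat ran from -0.30 to 0.22, Got1 from -0.56 to 0.19, Gpt2 from -0.33 to 0.028, Oat from -0.32 to 0.058 and Sds from -1.38 to 0.052. At 6 against 3 months Gpt2 ran from -0.10 to 0.10 and Oat from -0.26 to 0.24, and with LNA-29 Oat from -0.15 to 0.056 and Tat from -0.50 to 0.0070. True depth is unknown, so counting error could not be set beside these values.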
